A study of Mus musculus with 4 samples.

Results

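The BMP genes described here are Bmp1, Bmp2, Bmp3, Bmp4, Bmp5, Bmp6 and Bmp7, 7 of the 28692 genes counted in single stromal cells of the adult mouse small intestine and colon. They were chosen by name and were looked up by symbol in the 4 libraries. All 7 were found, and their UMIs (tagged RNA molecules) were counted by intestine and by cell class. The libraries came from untreated C57BL6/Nrj females aged 8-10 weeks, with no genetic modification, from 2 independent experiments of 3 pooled mice each. The muscle wall was stripped off, and live Itgb1+ cells negative for CD45, Ter119, CD31, BP3, EpCAM and L1CAM were sorted. There were 2 small intestinal and 2 colonic libraries, numbered replicate 1 and replicate 2 in each intestine. Values below are given in the order small intestine replicate 1, small intestine replicate 2, colon replicate 1, colon replicate 2, unless stated.

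Bone morphogenetic proteins (BMPs) are secreted ligands of the TGF-β family that bind type I and type II serine/threonine kinase receptors and signal through SMAD1, SMAD5 and SMAD9 to target genes such as the Id genes. In the gut mucosa, BMP signalling restrains stem cells and favours differentiation of epithelium away from the crypt base, while secreted antagonists made near the crypt keep it low there. Among the members, Bmp2 and Bmp4 encode one closely related pair of ligands and Bmp5, Bmp6 and Bmp7 another group, Bmp3 encodes a divergent member of the family that can oppose the others, and Bmp1 encodes no ligand but the astacin metalloproteinase that cleaves procollagens and the BMP antagonist chordin.

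The libraries held between 14341443 and 52269372 UMIs. After filtering, 1823, 14782, 2399 and 12327 cells remained, with median depths of 6968, 2758, 8810 and 3893 UMIs per cell. The libraries numbered 2 thus held more cells at lower depth, and they were made with Cell Ranger 3.1.0 instead of 3.0.2. The labels name a 3′ v3 kit or a 5′ kit without saying which library used which. Barcodes starting with AAACCT were found only in the libraries numbered 1 (0.291% and 0.347% of barcodes) and those starting with AAACCC only in the libraries numbered 2 (0.107% and 0.081%), and these are the first barcodes of the lists used with the 5′ kit and with the 3′ v3 kit, respectively. Replicate number, kit and software version therefore cannot be told apart. The small intestinal and colonic libraries numbered 2 shared 69 barcodes, those numbered 1 shared 8, and every other pair shared 2 or fewer.

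Cells were gated from marker genes, with no BMP gene among them, into PDGFRαhi fibroblasts (FB), CD81+ FB, PDGFRαlo CD81- FB and smooth muscle cells (SMC). The PDGFRαhi class, the fibroblasts that lie against the epithelium, held 168, 1586, 524 and 2605 cells. FB whose best score was for this class numbered 241, 3560, 603 and 3555. Of those, 7, 350, 53 and 394 lay near the limit of the gate, on either side of it. Pdgfra itself was at 2083, 1638, 1041 and 729.6 counts per 1000000 UMIs (CPM) in this class and at 137.7 to 216.6 CPM in the other FB classes. Cd81 was at 437.9 to 653 CPM in CD81+ FB, Fgfr2 was at 122 to 257.3 CPM in PDGFRαlo CD81- FB against 4.237 to 34 CPM in PDGFRαhi FB, and Myh11 was at 2249 to 3423 CPM in SMC. Not every marker separated the classes. Cxcl14 of the PDGFRαlo CD81- list was at 342, 144, 508 and 395 CPM in PDGFRαhi FB. In PDGFRαlo CD81- FB it was at 189, 175, 273 and 160 CPM. Tnc of the PDGFRαhi list was at 904 CPM in that class in colon replicate 1, and at 894 CPM in PDGFRαlo CD81- FB. In PDGFRαhi FB the summed endothelial markers were at 0.0343 to 0.0830 UMIs per 10000, the immune markers at 0.0203 to 0.165 and the epithelial markers at 0.0206 to 0.0524. The small intestinal SMC class was less clean, with Pdgfra at up to 335 CPM. Adamdec1, a marker of the PDGFRαlo CD81- list, was at 6814 and 5212 CPM in small intestinal SMC and at 1083 and 984 CPM in colonic SMC. All levels below are CPM of the UMIs summed over the cells of a class in a library. UMIs of different genes are not compared in level.

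Bmp2 was the member that set colonic PDGFRαhi FB apart from small intestinal ones. In colonic PDGFRαhi FB it stood at 1199 and 880.3 CPM, against 149 and 176 CPM in the same class of the small intestine. The intestines did not overlap, with means of 1039.5 ± 225.1 (SD, n = 2) and 163 ± 18.9 CPM (SD, n = 2). The ratio of colon to small intestine was 8.02 between the libraries numbered 1 and 5.0 between those numbered 2. In the test across all genes, Bmp2 was higher in colonic PDGFRαhi FB by 2.78 ± 0.31 on the log2 scale (SE, edgeR quasi-likelihood test, adjusted p = 0.036). It was the only 1 of the 7 members called at an adjusted p under 0.05 and a log2 difference over 1.5, where 1.19% of all 11565 genes tested were called. Without small intestine replicate 1 the log2 difference was 2.65 (adjusted p = 0.14) and without small intestine replicate 2 it was 2.92 (adjusted p = 0.16), and neither of those fits called any gene at all, with 1038 and 977 genes at an unadjusted p under 0.05. Because the mice were pooled, these p-values measure the spread between libraries and not between single animals.

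Bmp2 was not called between the intestines in CD81+ FB, PDGFRαlo CD81- FB or SMC. In CD81+ FB, Bmp2 was at 146, 155, 143 and 158 CPM, and in PDGFRαlo CD81- FB at 138, 172, 156 and 175 CPM. In both classes the intestines overlapped and the log2 differences were -0.16 (adjusted p = 0.966) and 0.10 (adjusted p = 0.974), where 0.403% and 0.571% of all genes were called. SMC held 60.1, 80.5, 107 and 87.3 CPM, with both colonic libraries above both small intestinal ones by 1.77 and 1.08 times. FB between the gates held 157, 176, 253 and 306 CPM, with the colon above by 1.61 and 1.73 times, and were not tested. Pericytes, the contractile cells along capillaries, held 165, 134, 166 and 161 CPM. The difference of the colon effect between PDGFRαhi FB and PDGFRαlo CD81- FB was tested directly, with the library as a block. For Bmp2 it was 2.68 ± 0.19 on the log2 scale (adjusted p = 6.94e-06, edgeR quasi-likelihood test), where 2.6% of 12443 genes were called.

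**Figure D1:**
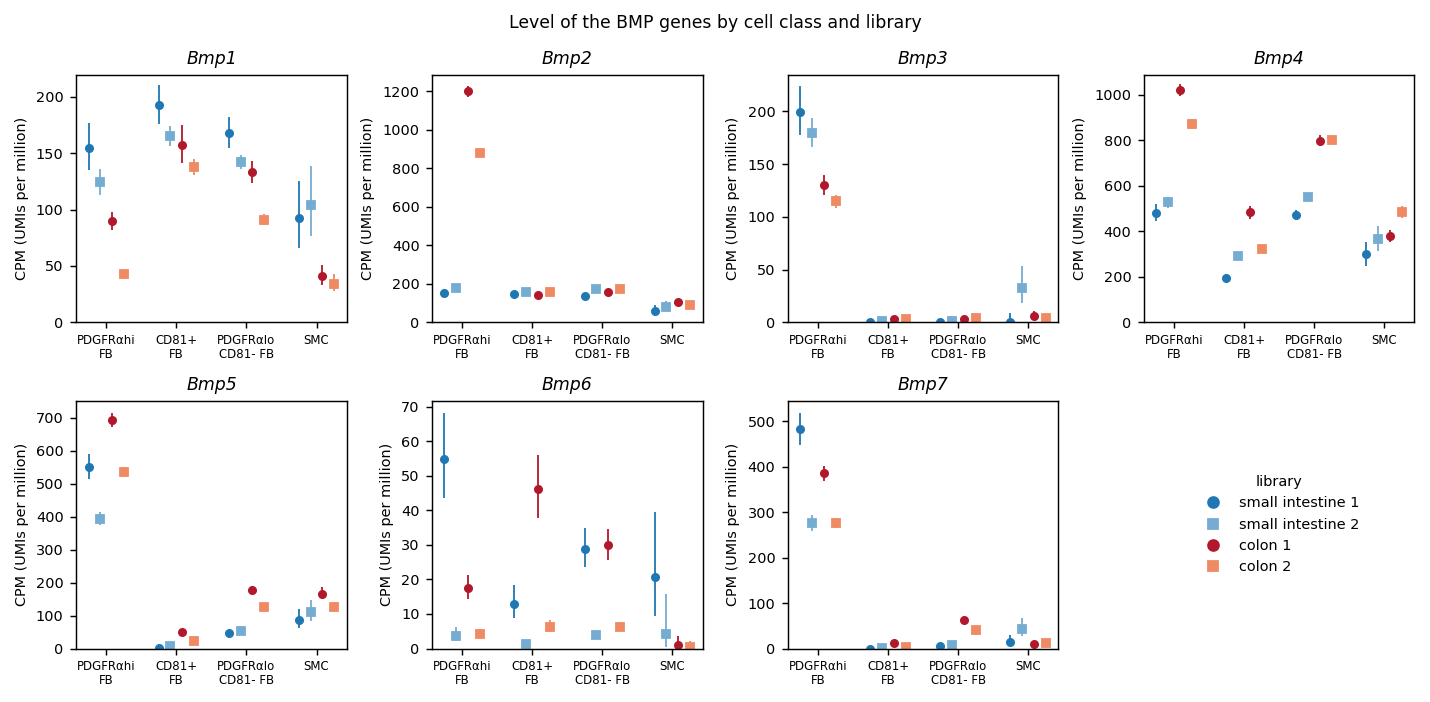
Level of each member in PDGFRαhi FB, CD81+ FB, PDGFRαlo CD81- FB and SMC, in CPM of the class sum, 1 point per library, with small intestine and colon in separate colours. Bmp2 in PDGFRαhi FB separates into 149 and 176 CPM in the small intestine and 1199 and 880.3 CPM in the colon, and lies near one level in the other FB classes.

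Within the small intestine the level of Bmp2 in PDGFRαhi FB was close to that of the other fibroblasts. With the small intestinal libraries alone, the log2 difference of PDGFRαhi FB was -0.33 against CD81+ FB (adjusted p = 0.128) and -0.14 against PDGFRαlo CD81- FB (adjusted p = 0.577), neither called. The sign is that of the TMM-scaled fit, and in CPM PDGFRαhi FB were slightly above both classes in each small intestinal library. With the colonic libraries alone, it was 2.58 (adjusted p = 1.1e-07) and 2.53 (adjusted p = 2.3e-07). In the fit over both intestines, Bmp2 differed by 1.39 from CD81+ FB (adjusted p = 0.0665) and by 1.48 from PDGFRαlo CD81- FB (adjusted p = 0.0687), and neither was called. Against SMC it was higher by 2.64 (adjusted p = 0.00589), a call lost without colon replicate 2 (2.27, adjusted p = 0.0817) and with the small intestine only (1.15, under the log2 limit).

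Bmp4, the close relative of Bmp2, was present in every stromal class. Its level in PDGFRαhi FB was 482, 527, 1019 and 872 CPM, so that both colonic libraries lay above both small intestinal ones, by 2.11 times between the libraries numbered 1 and by 1.65 times between those numbered 2. The log2 difference of 1.02 ± 0.27 (SE) did not pass the test (adjusted p = 0.198). PDGFRαlo CD81- FB held nearly as much Bmp4, at 470, 549, 798 and 801 CPM, and the classes differed by -0.04 on the log2 scale (adjusted p = 0.896). CD81+ FB held less, at 195, 292, 483 and 321 CPM, and SMC held 298, 365, 377 and 485 CPM. PDGFRαhi FB were above both by 0.86 (adjusted p = 0.00041) and 0.85 (adjusted p = 0.00075), short of the log2 limit of 1.5. For Bmp4 the colon effect was not called as different between PDGFRαhi FB and PDGFRαlo CD81- FB (0.37, adjusted p = 0.161).

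Bmp3, Bmp5 and Bmp7 formed the group called higher in PDGFRαhi FB than in every other class compared. They are described here by how far they reached into the other classes. Bmp3 was at 200, 180, 130 and 115 CPM in PDGFRαhi FB against 0.406 to 3.33 CPM in CD81+ FB and 0.280 to 4.40 CPM in PDGFRαlo CD81- FB. Bmp7 was at 482, 276, 385 and 276 CPM in PDGFRαhi FB. Bmp5 was at 551, 394, 694 and 536 CPM there, with a broader floor of 48.2 to 178 CPM in PDGFRαlo CD81- FB and 87.8 to 167 CPM in SMC. All 3 were called in the contrasts with CD81+ FB, with PDGFRαlo CD81- FB and with SMC, where 11.2%, 7.43% and 9.15% of all genes were called. Their log2 differences were 6.04, 4.89 and 6.44 (Bmp3, Bmp5, Bmp7) against CD81+ FB and 5.74, 2.49 and 3.83 against PDGFRαlo CD81- FB. Against SMC they were 4.40, 2.21 and 4.72. These contrasts share the PDGFRαhi libraries and are not independent of each other. In small intestine replicate 1, Bmp3 had 1 UMI in CD81+ FB and 1 in PDGFRαlo CD81- FB, and Bmp7 had 0 in CD81+ FB. Over the alternatives, the log2 difference from CD81+ FB ranged from 5.03 to 7.72 for Bmp3 and from 5.50 to 7.77 for Bmp7. The value of Bmp3 in SMC came from 0 UMIs (which allows up to 6.93 CPM) and 15, 12 and 10 UMIs, and the 15 fell in the small intestinal library whose SMC class carried 7.24 UMIs of PDGFRαhi markers per 10000, against 2.99 to 4.62 in the other libraries.

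Inside PDGFRαhi FB these genes did not follow Bmp2 across the gut. The log2 differences of colon over small intestine were -0.52 for Bmp3 (adjusted p = 0.546), 0.49 for Bmp5 (adjusted p = 0.712) and -0.08 for Bmp7 (adjusted p = 0.996). In PDGFRαlo CD81- FB, by contrast, Bmp7 was at 4.76 and 7.27 CPM in the small intestine and at 62.8 and 39.8 CPM in the colon. Bmp5 was at 48.2 and 52.0 CPM against 178 and 127 CPM in the same cells. The intestines did not overlap for either gene, yet neither was called within this class, with log2 differences of 3.03 ± 0.36 for Bmp7 (adjusted p = 0.0569) and 1.60 ± 0.24 for Bmp5 (adjusted p = 0.0909). With the replicate number as a block, both were called, along with Bmp3 (2.87, 1.57 and 2.10 on the log2 scale, adjusted p = 0.0005, 0.00064 and 0.019). Cells between the FB gates showed the same order for Bmp7, at 6.34, 9.35, 94.1 and 77.9 CPM.

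The difference of the colon effect between the classes was called for Bmp7 (-2.87 ± 0.36, adjusted p = 0.0101) and for Bmp3 (-2.47 ± 0.37, adjusted p = 0.00131). The sign shows a lower ratio of colon to small intestine in PDGFRαhi FB, where neither gene had a colonic excess. The Bmp3 value rested on 1, 17, 20 and 64 UMIs in PDGFRαlo CD81- FB. For Bmp7 the call was lost without either colonic library (adjusted p = 0.21 and 0.16). For Bmp5 it was -1.06 ± 0.18 (adjusted p = 0.00268), short of the log2 limit. The summed PDGFRαhi markers within the PDGFRαlo CD81- gate were at 6.17 and 3.35 UMIs per 10000 in the small intestine and at 12.3 and 4.38 in the colon. They were higher in the colon between libraries of the same number, but the intestines overlapped. Among them, Pdgfra was at 211, 164, 212 and 138 CPM and Tnc at 369, 150, 894 and 226 CPM. Their part in the Bmp3, Bmp5 and Bmp7 values was not tested. PDGFRαhi FB were also a larger share of the gated colonic cells, as given with the UMI shares.

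**Figure D2:**
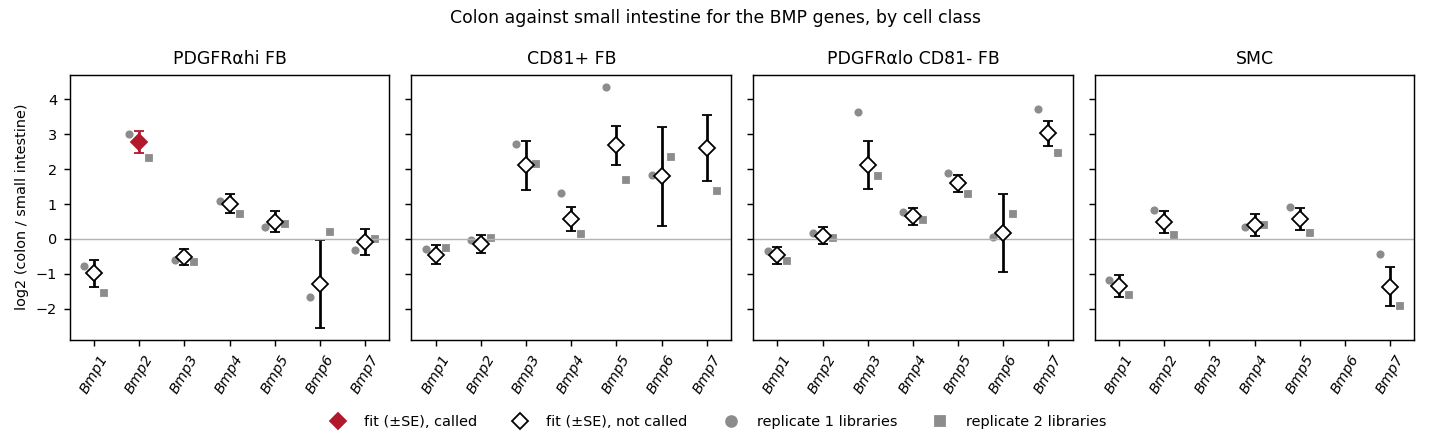
Difference of colon over small intestine for each member in each class, on the log2 scale, with the standard error of the edgeR fit and the members that passed the test marked. Bmp2 in PDGFRαhi FB (2.78 ± 0.31) stands apart from Bmp2 in the other FB classes (-0.16 and 0.10), while Bmp7 is near 0 in PDGFRαhi FB (-0.08) and at 3.03 in PDGFRαlo CD81- FB.

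For 3 of the 7 members, promoter sequence was at hand. Bmp5 was called higher in PDGFRαhi FB than in the other classes compared, and Bmp4 was found in all classes. To set them side by side, the stretches of 250 bases before the start of each are printed. Both are from RefSeq on GRCm38.p6, run 5′ to 3′ on the strand of the gene, and have any GC box (GGGCGG on either strand) in capitals. Bmp5 lies on the plus strand (chr9:75775364-75900310) and its stretch is chr9:75775115-75775364. Bmp4 lies on the minus strand (chr14:46383520-46390669) and its stretch is chr14:46390670-46390919.
Bmp5: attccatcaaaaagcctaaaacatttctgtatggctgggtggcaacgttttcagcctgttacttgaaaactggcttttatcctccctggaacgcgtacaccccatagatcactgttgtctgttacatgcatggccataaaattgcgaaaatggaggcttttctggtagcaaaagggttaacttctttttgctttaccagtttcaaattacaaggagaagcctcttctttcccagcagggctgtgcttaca
Bmp4: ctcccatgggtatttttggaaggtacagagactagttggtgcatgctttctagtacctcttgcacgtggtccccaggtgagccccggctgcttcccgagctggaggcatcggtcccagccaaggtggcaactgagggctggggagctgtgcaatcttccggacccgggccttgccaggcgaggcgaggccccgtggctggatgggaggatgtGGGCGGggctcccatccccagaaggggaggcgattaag
The Bmp5 stretch has a GC content of 42.8% and no GC box on either strand. Other short motifs searched on both strands were the TATA box, spelled TATAAA, the CCAAT box, spelled as its name, a forkhead core, spelled TGTTTA, and the E-box, spelled CANNTG, and none was found in it. The Bmp4 stretch has a GC content of 63.2%, 1 GC box and 3 E-boxes, none overlapping another motif, and none of the rest. Over 32851 promoter stretches of the same length the median GC content was 52.4%, and 32.7% held a GC box, 12.4% a TATA box, 33.8% a CCAAT box, 12.0% the forkhead core and 66.2% an E-box. A match describes these letters only.

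Bmp6, a relative of Bmp5 and Bmp7, did not share their restriction, and its values split by replicate number in every class. In PDGFRαhi FB it was at 54.8, 3.75, 17.5 and 4.33 CPM, and in CD81+ FB at 13.0, 1.26, 46.2 and 6.37 CPM. In PDGFRαlo CD81- FB it was at 28.9, 3.86, 29.8 and 6.33 CPM. The library numbered 1 was above that numbered 2 by more than 2 times in 8 of 8 combinations of class and intestine, with ratios of 2.49 to 14.6 and a median of 6.02. Each of the other members passed a ratio of 2 in this direction in at most 1 of 8. Between libraries of the same number, colonic Bmp6 was 3.56 and 5.06 times the small intestinal level in CD81+ FB, 1.03 and 1.64 times in PDGFRαlo CD81- FB and 0.318 and 1.16 times in PDGFRαhi FB. In SMC it was at 20.8 and 4.35 CPM in the small intestine and at 0.982 and 0.395 CPM in the colon, below the filter of the test. Bmp6 was called in none of the comparisons between intestines or classes as fitted, with a log2 difference of 1.80 in CD81+ FB (adjusted p = 0.879) and -1.28 ± 1.26 in PDGFRαhi FB (adjusted p = 0.901). In a fit blocked by replicate number, and in one with no filter on low counts, Bmp6 in CD81+ FB was called (1.82 and 1.80, adjusted p = 0.0384 and 0.000864). With the small intestine only, Bmp6 was higher in PDGFRαhi FB than in CD81+ FB by 1.47 (edgeR quasi-likelihood test, adjusted p = 0.00413), short of the log2 limit. The annotation (chr13:38345107-38500302) places Txndc5 and 4930579J19Rik on the other strand within its bounds, and Bmp4 and Bmp5 also overlap other gene models. Whether the counting used strand is not stated, so reads in these overlaps are uncertain.

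Bmp1, the procollagen C-proteinase, was present in every FB class and in SMC. It was at 155, 124, 89.6 and 42.6 CPM in PDGFRαhi FB and at 168, 142, 133 and 90.9 CPM in PDGFRαlo CD81- FB. CD81+ FB held 193, 165, 157 and 137 CPM, and SMC held 92.4, 104, 41.2 and 34.4 CPM. Both colonic libraries lay below both small intestinal ones in all 4 classes. None of these differences was called, with -0.99 ± 0.39 in PDGFRαhi FB (adjusted p = 0.435) and -1.35 ± 0.32 in SMC (adjusted p = 0.188), where 0.223% of all genes were called and 5 of the 7 members could be tested. Between classes, PDGFRαhi FB were lower in Bmp1 by 1.12 on the log2 scale than CD81+ FB (-1.12, adjusted p = 0.000337), short of the log2 limit.

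The share of all stromal UMIs of a ligand that came from PDGFRαhi FB combines the level per cell with the number of cells in the sort. In these summed libraries fewer cells of a class and less RNA per cell both lower a share. PDGFRαhi FB made up 12.5%, 10.8%, 25% and 21.4% of the gated stromal cells and held 14.0%, 8.94%, 29.4% and 22.5% of their UMIs. For Bmp2 they held 14.6% and 9.28% of the UMIs in the small intestine, near their share of all UMIs, and 74.8% and 56.3% in the colon. For Bmp3 they held 96.7%, 86.2%, 89.7% and 79.3%, and for Bmp7 95%, 78.6%, 76.1% and 67.7%. Bmp5 was in between, at 72.4%, 49.3%, 64.3% and 56.8%. The Bmp4 share was 18.2%, 9.96%, 38.7% and 28.7%, so most of the Bmp4 UMIs lay outside this class. For Bmp6 the share was 28.4%, 11.2%, 19.6% and 17.3%, and for Bmp1 13.3%, 7.60%, 24.4% and 10.9%. Summed over Bmp2 to Bmp7, PDGFRαhi FB held 35.9%, 18.1%, 56.9% and 43.8% of the ligand UMIs, and the colonic libraries were both above the small intestinal ones. The shares also depend on how many cells passed the gate. FB scoring highest for this class numbered 241, 3560, 603 and 3555, of which 168, 1586, 524 and 2605 passed. FB between the gates held 17.7%, 36.4%, 13.5% and 20.2% of the ligand UMIs. The part of the gate in the difference between intestines was not tested.

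**Figure D3:**
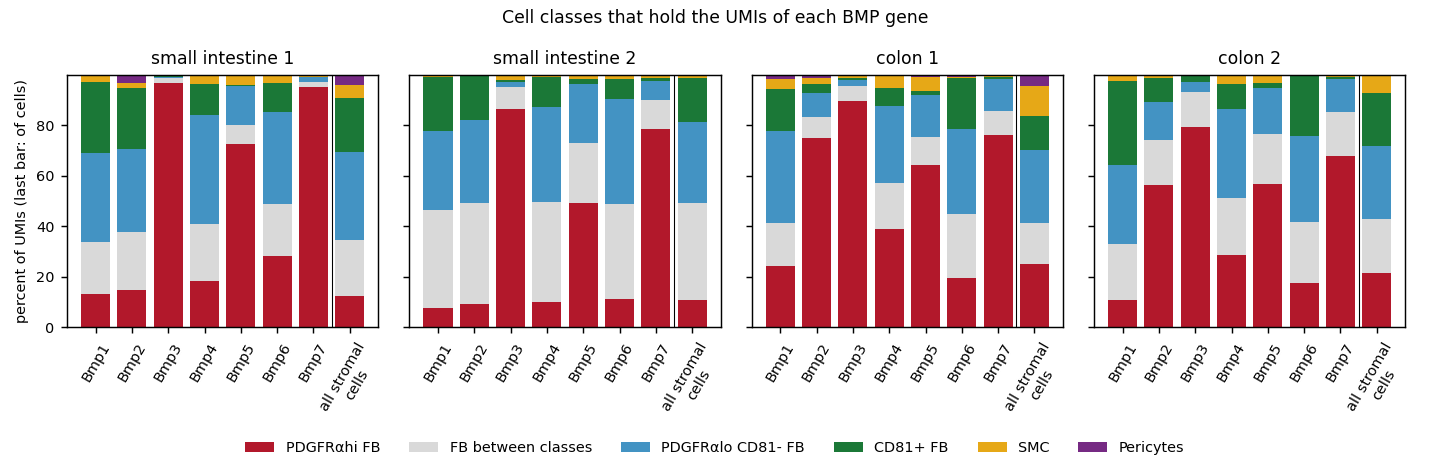
Percent of the stromal UMIs of each member that each class held, as stacked bars per library from 0 to 100 percent. The PDGFRαhi segment of Bmp2 widens from 14.6% and 9.28% in the small intestine to 74.8% and 56.3% in the colon, while that of Bmp3 stays at 79.3% or more in every library.

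Detection per cell was compared after each cell was thinned to 2000 UMIs, which kept 159, 968, 519 and 2439 PDGFRαhi FB and left out 9, 618, 5 and 166 shallower ones. A UMI of Bmp2 was then found in 26.4%, 22.5%, 70.3% and 64.7% of the cells, and without thinning in 52.4%, 26.2%, 91.6% and 76.2%. Bmp4 was found in 46.5%, 59.8%, 82.9% and 77.9% of the thinned cells, Bmp5 in 74.2%, 49.7%, 80.2% and 64.8%, and Bmp7 in 50.3%, 39.3%, 49.7% and 40.2%. Bmp3 was found in 28.9%, 27.8%, 22% and 19.1%, Bmp1 in 32.1%, 20.6%, 17.5% and 8.53%, and Bmp6 in 13.2%, 0.930%, 3.47% and 0.902%. Endothelial cells left in the sort were 318 of 1823, 1 of 14782, 233 of 2399 and 23 of 12327 kept cells, and those of the libraries numbered 1 served as the low reference, with 290 cells of small intestine replicate 1 and 222 of colon replicate 1 after thinning, and median depths of 4543.5 and 5053 UMIs before it. The PDGFRαhi medians in those libraries were 9169 and 10601 UMIs. In these endothelial cells Bmp2 was found in 2.07% and 0%, Bmp4 in 3.45% and 1.80%, Bmp5 in 0% and 1.80%, Bmp3 and Bmp7 in 0%, and Bmp1 in 4.48% and 12.6%. A count of 0 allows a share of up to 1.03% of the 290 cells and 1.35% of the 222. The summed FB markers in these endothelial cells were at 0.485 and 0.307 UMIs per 10000, and their Bmp1 stood at 26.7 and 66.2 CPM, so that they were no low reference for Bmp1.

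Most PDGFRαhi FB held several ligands at once. Of the 6 ligands Bmp2 to Bmp7, 2 or more were found in 74.2%, 65.5%, 93.6% and 87.7% of the thinned cells, and 3 or more in 46.5%, 32.7%, 74.4% and 58.4%. No ligand was found in 5.66%, 9.30%, 0.193% and 1.39%. If the ligands were found in cells independently of each other, the separate shares would give 2 or more in 79.2%, 67.3%, 94.8% and 88.0% and 3 or more in 45.2%, 31.0%, 73.6% and 57.6%, close to the measured values. For pairs of Bmp2, Bmp3, Bmp4, Bmp5 and Bmp7, the share of cells with both was 0.790 to 1.73 times the product of the separate shares over 10 pairs in 4 libraries, and the 95% counting interval left out 1 in 4 of these 40 values. These intervals cover counting error only, and cells of 1 library are not replicates.

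For Bmp2 with Bmp3 in the colon, cells with both were 0.898 (0.70 to 1.13) and 0.790 (0.693 to 0.897) times as many as the product of the shares in colon replicates 1 and 2. In the small intestine the ratio was 1.73 (1.07 to 2.64) and 1.12 (0.87 to 1.42), but with cells thinned to 4000 UMIs it averaged 0.884 there, so that no order between the intestines was read from it. The interval left out 1 in small intestine replicate 1 and colon replicate 2 only. The other intervals that left out 1 were those of Bmp3 with Bmp7 (1.35, 1.14 to 1.60) and Bmp5 with Bmp7 (1.19, 1.04 to 1.36), both in small intestine replicate 2.

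**Figure D4:**
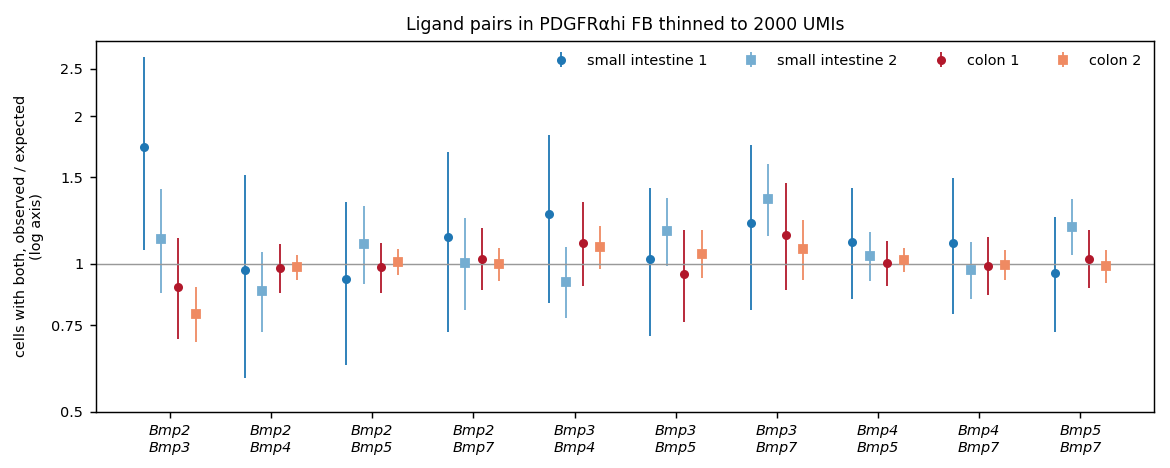
Cells with both ligands over the product of the separate shares, for pairs of ligands in PDGFRαhi FB thinned to 2000 UMIs, 1 point per library with its 95% counting interval and a line at 1. Bmp2 with Bmp3 is at 1.73 and 1.12 in the small intestine and at 0.898 and 0.790 in the colon, and most other pairs lie near 1.

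Bmp2 and Bmp3 differed in opposite directions between colonic PDGFRαhi FB that held only one of a pair of surface marker genes. Cells with UMIs of the tetraspanin gene Cd9 and none of Thbd, the gene of thrombomodulin (CD141), were set against cells with Thbd and no Cd9. Bmp2 was at 2484 and 1248 CPM in the Cd9+ Thbd- cells of colon replicates 1 and 2 and at 733 and 525 CPM in the Cd9- Thbd+ cells. Bmp3 ran the other way, at 15 and 33.8 CPM against 182 and 215 CPM. The ratios of Cd9- Thbd+ to Cd9+ Thbd- cells were 0.295 and 0.421 for Bmp2 and 12.1 and 6.37 for Bmp3, and the counting intervals of the 2 subsets did not overlap in either library. Bmp4 was higher in the Cd9- Thbd+ cells by 1.31 and 1.36 times, while Bmp5 (1.07 and 1.21 times) and Bmp7 (383 against 344 and 268 against 267 CPM) differed less. The subsets held 78 and 46 cells of the 524 in colon replicate 1 and 912 and 460 of the 2605 in colon replicate 2. Cells with both Cd9 and Thbd, 75.8% and 41.4% of the class, held both ligands, with Bmp2 at 942 and 655 CPM and Bmp3 at 153 and 159 CPM. The Cd9+ cells were deeper, with median UMIs of 13440.5 against 8326 and 4680.5 against 3186.5. In subsets drawn after thinning to 2000 UMIs, a choice made after seeing the data, the ratios were 0.408 and 0.502 for Bmp2 and 4.49 and 3.82 for Bmp3.

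In the small intestine the same split gave 6 and 29 cells in replicate 1 and 147 and 742 in replicate 2. Bmp2 was then nearly equal, at 115 against 105 CPM and 159 against 167 CPM. Bmp3 was lower in the Cd9+ Thbd- cells there as well, at 0 UMIs (up to 86.2 CPM allowed by that count) against 242 CPM and at 95.9 against 219 CPM, and so was Bmp7, at 144 against 611 CPM and 181 against 323 CPM. Bmp5 was at 460 against 556 CPM and 246 against 432 CPM. In subsets drawn after thinning, the ratios of Cd9- Thbd+ to Cd9+ Thbd- cells there were 1.6 and 0.885 for Bmp2, 4.65 and 2.0 for Bmp3 and 1.39 and 1.88 for Bmp7. For Bmp5 they were 0.9 and 1.84. With 2 libraries per intestine these subset values are a description without a test.

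**Figure D5:**
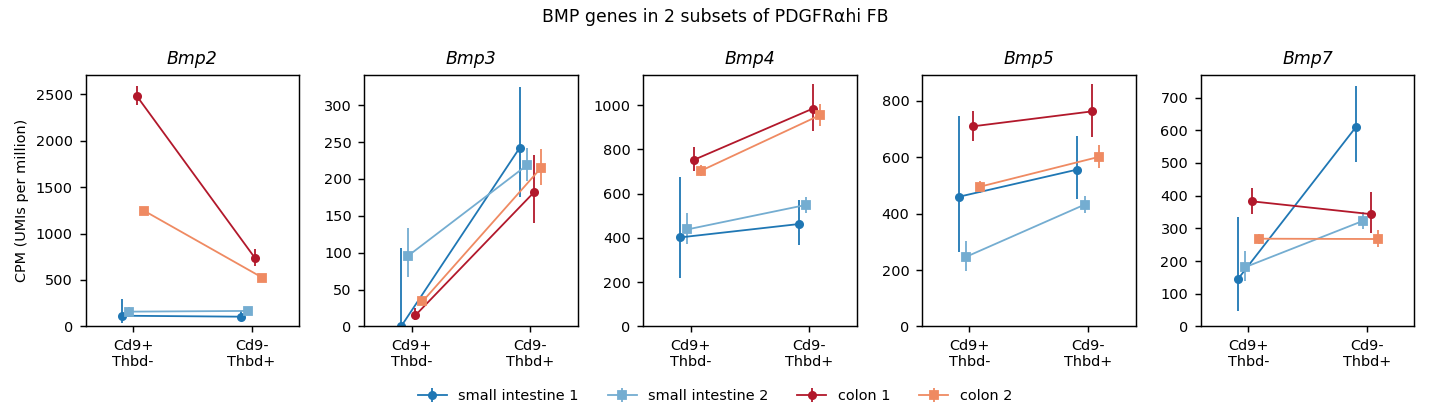
Level of Bmp2, Bmp3, Bmp4, Bmp5 and Bmp7 in Cd9+ Thbd- and Cd9- Thbd+ PDGFRαhi FB, in CPM on a linear axis, per library with 95% counting intervals. In the colon Bmp2 is higher in Cd9+ Thbd- cells (2484 and 1248 CPM) and Bmp3 in Cd9- Thbd+ cells (182 and 215 CPM).

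Genes whose levels ran most like a member over the 16 points of 4 classes and 4 libraries were ranked by Pearson correlation of log2 levels among 7080 genes, as a description, since the points share libraries. For Bmp3 these were Wisp1 (r = 0.990), Palmd (0.974) and Wif1 (0.974), and for Bmp7 Bean1 (0.974), C5ar1 (0.965) and Akr1b8 (0.964). For Bmp5 they were Emid1 (0.952), Syt13 (0.947) and Ece1 (0.944). Bmp2 was nearest to Galk2 (0.898), Kremen1 (0.894) and Tgfb1 (0.883), and Bmp4 to Sdk1 (0.942), Lnp (0.932) and Lin7a (0.905). Bmp1 was nearest to Htra3 (0.945), Clec3b (0.939) and Rnf144a (0.937), and Bmp6 to Myl12b (0.912), Adam9 (0.871) and Tcf3 (0.864). Among the members themselves, Bmp3 with Bmp7 reached 0.94, Bmp5 with Bmp7 0.904 and Bmp3 with Bmp5 0.804.

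The rest of the pathway was read from a list of 56 other ligands, antagonists, Bmp1-family proteins, receptors, transducers and targets, of which 55 were in the files. Between the intestines in PDGFRαhi FB, 38 could be tested, 1 was higher in the colon and 0 were lower, where 1.19% of all genes were called. The median log2 difference of the list was 0.08, beside 0.01 over all genes. The one that rose was Fst, which encodes follistatin, a secreted binder of activins and some BMPs. It was at 11 and 7.23 CPM in small intestinal PDGFRαhi FB and at 169 and 244 CPM in the colonic ones (4.67 ± 0.42 on the log2 scale, adjusted p = 0.0304). The adjusted p of Fst was 0.063 and 0.10 without small intestine replicate 1 or 2. Of 40, 41 and 35 list members tested in CD81+ FB, PDGFRαlo CD81- FB and SMC, 0 were called in either direction.

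The difference of the colon effect between PDGFRαhi FB and PDGFRαlo CD81- FB was called for 3 of 42 list members, where 2.6% of all genes were called. It was higher for Bmper, a secreted BMP-binding protein (4.04, adjusted p = 0.00319), whose levels were low, at 0.686, 1.07, 4.54 and 3.78 CPM in PDGFRαhi FB and 6.72, 4.0, 2.09 and 0.894 CPM in PDGFRαlo CD81- FB. It was also higher for Bambi, a pseudoreceptor that dampens the signal (1.57, adjusted p = 0.00562), at 6.86, 10.7, 54.3 and 41.3 CPM against 44.3, 29.4, 63.5 and 58.6 CPM. It was lower for Rgmb, a BMP co-receptor (-1.53, adjusted p = 0.0045). The last 2 lay close to the log2 limit, and their calls were lost in 3 and 4 of 12 alternatives.

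Between classes, the calls within the list fell on both antagonists and other ligands. Against CD81+ FB, 5 of 41 list members were higher and 11 were lower in PDGFRαhi FB, where 11.2% of all genes were called, with a median of -0.49 beside 0.02 over all genes. The highest were Inhba, the gene of the activin A subunit (3.54), Id1, a BMP target (2.92), Nbl1, a secreted antagonist (2.18), and Fst (1.94), whose call was lost in 4 of 15 alternatives. Those lower included Pcolce2, the gene of an enhancer of procollagen cleavage by Bmp1 (-7.06), the antagonist gene Grem1 (-5.82) and the ligand gene Gdf10 (-4.56). Id1 was at 341, 240, 356 and 436 CPM in PDGFRαhi FB and at 28.0 to 58.9 CPM in CD81+ FB.

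Against PDGFRαlo CD81- FB, 5 of 41 were higher and 5 lower, where 7.43% of all genes were called, among them Fst (6.07), Inhba (3.15), Nbl1 (2.27) and Id1 (2.13) on the higher side and Grem1 (-3.87), Hey1 (-1.76) and Rgmb (-1.66) on the lower side. Grem1 in PDGFRαhi FB differed between libraries, at 4.11, 137, 0.175 and 10.0 CPM, and its call was lost in 6 of 15 alternatives. Those of Hey1 and Rgmb were lost in 5 and 4 of 15. Against SMC, 5 of 41 were higher and 5 lower, where 9.15% of all genes were called, among them Fst (5.10), Nbl1 (2.71), the antagonist gene Chrd (2.22) and Id1 (2.05) on the higher side and the receptor gene Bmpr1b (-5.36), the antagonist gene Chrdl1 (-5.05) and Id4 (-4.43) on the lower side. Bmpr1b was at 0 in 2 of the 4 PDGFRαhi libraries and Chrdl1 in 1, so that their fitted differences depend on the prior count of the fit. The same holds for Fst, at 0 and 0 CPM in small intestinal SMC and at 0 and 0.297 CPM in small intestinal PDGFRαlo CD81- FB. Its call against SMC held in 14 of 15 alternatives. The medians of the list were -0.18 against PDGFRαlo CD81- FB and 0.09 against SMC, beside 0.00 and 0.02 over all genes.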

How the data were processed

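The 4 matrices were deposited by the authors as UMI counts per gene and barcode, made with Cell Ranger 3.0.2 (replicates 1) and 3.1.0 (replicates 2) on mm10, per the file headers and the submitters' processing notes, and not normalized. Replicate numbers and intestines came from the sample titles. Depth was 14341443 to 52269372 UMIs per library.

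Barcodes were kept if they had 500 or more genes detected, 1000 or more UMIs and a mitochondrial share of no more than 10%, and doublets were removed with the scrublet method in scanpy 1.11.5 at a score of 0.25 (11, 481, 32 and 361 barcodes). Cells were assigned to the class whose markers scored highest, with limits set after marker levels, but no BMP gene, had been seen. Barcodes gated as plasma or immune cells carried fibroblast markers and were not used. UMIs were summed per library and class and tested with edgeR 4.0.16 in R 4.3.3 (quasi-likelihood, TMM, filterByExpr, Benjamini-Hochberg over all genes tested), and a gene was called at an adjusted p under 0.05 and an absolute log2 difference over 1.5. DESeq2 1.42.0, other scalings, filters and gates were alternatives, and adjusted p-values that DESeq2 gave as missing stayed missing. The fits were tested on simulated data. Correlations used log2(CPM + 10) over genes at 20 CPM or more in at least 4 of the points. Exact 95% intervals cover counting error only. Gene positions are from the GRCm38 annotation.

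The members and gene lists were chosen with earlier results of these data known. Named were the 7 members in every comparison and, from the pathway list, up to 4 called genes per direction with the largest change. Twsg1 and other called genes beyond these were counted only. One gene that this rule names is not reported here. Protein sequences were not used here.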

Additional observations from a re-analysis of the deposited data

Results flagged for a closer look

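The effect of the intestine differed between PDGFRαhi FB and PDGFRαlo CD81- FB for 6 of the genes named, by a test of the difference itself (edgeR, library as block, Benjamini-Hochberg over all genes). On the log2 scale the colonic excess in PDGFRαhi FB was greater by 2.68 for Bmp2, by 4.04 for Bmper and by 1.57 for Bambi. The difference was -2.47 for Bmp3, -2.87 for Bmp7 and -1.53 for Rgmb. In PDGFRαlo CD81- FB, Bmp3 rested on 1, 17, 20 and 64 UMIs. Over 12 alternatives the calls held in 12 for Bmp2, Bmp3 and Bmper, in 10 for Bmp7, in 9 for Bambi and in 8 for Rgmb.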

How the results depend on the processing

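Counts of genes called between the intestines depended on the test. In PDGFRαhi FB they were 138 in the fit as reported, 476 with DESeq2, 590 with no filter on low counts, 850 with the replicate block and 0 to 273 when 1 library was left out. In CD81+ FB they were 46, 215, 416, 268 and 8 to 174, and 0 with graph clusters in place of the gate. In PDGFRαlo CD81- FB they were 71, 367, 365, 630 and 0 to 181. The edgeR fits with 0 calls had 888 (CD81+ FB, graph clusters), 702 (PDGFRαlo CD81- FB without small intestine replicate 2), 1038 and 977 genes (PDGFRαhi FB without small intestine replicate 1 or 2) at an unadjusted p under 0.05. In SMC they were 21, 167, 339, 469 and 4 to 51, with 80 from graph clusters and 6 with doublets kept. The contrast of PDGFRαhi FB with SMC called 1075 genes in both intestines, 609 in the small intestine only and 1653 in the colon only. The replicate numbers do not name a shared animal or day in the labels. Same-numbered libraries deviated together (r = 0.738, 0.636, 0.772 and 0.651 in PDGFRαhi, CD81+, PDGFRαlo CD81- FB and SMC) but make only 2 pairs. With the replicate block, Bmp2 in PDGFRαhi FB was at 2.77, and Bmp6 in CD81+ FB was called (1.82, adjusted p = 0.038). The cause of these changes was not tested.

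Some directions turned between settings, not all of them for small differences. With the small intestine only, Bmp2 was at -0.33 against CD81+ FB and -0.14 against PDGFRαlo CD81- FB, Bmp6 at 1.47 and 0.40, and Msx1 at 0.11 against SMC. The Bmp6 value of 1.47 had an adjusted p of 0.00413 (edgeR quasi-likelihood test). With the colon only, Bmp4 was at 0.13 against PDGFRαlo CD81- FB. Bmp6 between intestines in PDGFRαlo CD81- FB was at -0.0039 with a stricter gate. When 1 library was left out, Bmp4 ranged from -0.13 to 0.023 against PDGFRαlo CD81- FB and Bmp6 from -0.82 to 0.54 against CD81+ FB. Between intestines, Bmp2 in PDGFRαlo CD81- FB ranged from -0.065 to 0.27 and Bmp7 in PDGFRαhi FB from -0.42 to 0.35. Bmp6 ranged from -2.46 to 1.57 in PDGFRαhi FB, from -0.15 to 4.16 in CD81+ FB and from -1.24 to 2.16 in PDGFRαlo CD81- FB.

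The share of PDGFRαhi FB with a Bmp2 UMI in the small intestine was 39.3% unthinned, 12.2% at 1000 UMIs and 40.4% at 4000, and in the colon 83.9%, 49.4% and 84.7%. Cells with 2 or more ligands were 81.6%, 39.5% and 88.7% in the small intestine, 77.4% with a stricter gate, and 97.4%, 65.5% and 99.4% in the colon. The mean ratio for Bmp2 with Bmp3 was 0.884 in the small intestine at 4000 UMIs and 0.954 in the colon unthinned.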

Other observations

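The Bmp6 values differed by replicate number in both intestines and in all 4 stromal classes compared. The kit as read from the first barcodes, the software version, cell number and depth differ along the same line. Pericytes, too few for a test (43 to 97 cells per library), showed a split by number the other way for Bmp4, with 28.5 and 42.1 CPM in the libraries numbered 1 and 372 and 192 CPM in those numbered 2.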
